A study of Mus musculus with 4 samples.

Results

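The genes described here build and serve the early secretory pathway: the translocon of the endoplasmic reticulum (ER), the signal peptidase, the enzymes of N-glycosylation, and the COPII and COPI vesicle coats with their cargo receptors. They were chosen from a list of 43 gene symbols, and a gene was taken as measured where a probe set of the array named it and no other gene. 41 of the 43 were measured, out of 19938 genes in all. Sec61g, the small γ subunit of the channel, was represented only by probe sets that it shared with other genes, and Kdelr2 was not analysed here.

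RNA was measured on 4 Affymetrix Mouse Gene 1.0 ST arrays, whose probes lie along the whole transcript. 2 arrays held RNA from wild type mice (*lal+/+*) and 2 from mice without lysosomal acid lipase (*lal−/−*), the lysosomal enzyme that hydrolyzes cholesteryl esters and triglycerides. The cells were bone marrow myeloid cells labelled CD11b+ Gr-1+, selected with magnetic beads through the neutrophil antigen Ly6G, from mice of 5 months on an FVB/N background after 10 generations of backcrossing. The labels do not say whether the 2 arrays of a genotype came from separate animals or pools, so the p-values given here cover no more than the spread between arrays, and that spread may be technical.

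Proteins meant for secretion, for granules, for lysosomes or for membranes are threaded into the ER through the Sec61 channel while ribosomes make them. There the signal peptidase removes the signal peptide and oligosaccharyltransferase (OST) transfers a preassembled glycan from dolichol to asparagine residues. COPII-coated vesicles then carry the cargo towards the Golgi apparatus, and COPI-coated vesicles bring receptors and escaped ER residents back. Myeloid cells that fill granules during maturation in the bone marrow use this route for their granule proteins.

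9 of the 41 measured genes rose in *lal−/−* cells, 0 fell, and 32 were not called. A call required an adjusted p under 0.05 (limma, Benjamini-Hochberg over all probe sets that name 1 gene) and a fold of at least 2. The 9 were the TRAP subunits Ssr2, Ssr3 and Ssr4, the OST subunit Rpn1, the COPII GTPase Sar1b, the COPI components Cope, Copz1 and Arf1, and the retrieval receptor Kdelr1. Over all 19938 genes 7.56% were called higher and 3.24% lower by the same rule. The median log2 fold change of the 41 genes was 0.42, from −0.76 for Dad1 to 2.09 for Cope, beside a median of 0.08 over all genes. 32 of the 41 values were positive and 9 negative, beside 11909 positive and 8029 negative values over all 19938 genes. 12 further genes had an adjusted p under 0.05 with a change below 2-fold, 10 of them positive and 2 negative. Over all 19938 genes, 3747 did so. Without the fold, 19 of the 41 were higher and 2 lower, beside 3938 higher and 1963 lower among all genes. Every gene on the array with a change of at least 2-fold also passed the adjusted p, so the fold decided which genes were called.

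Most of these genes are expressed at high levels, with a median percentile of 88.4 among all genes. 40 of the 41 lay at or above the median level of the array. Among the 10587 genes at or above that level, 13.5% were called higher and 5.31% lower, and the median change was 0.14 on the log2 scale. The 40 genes held the same 9 calls with a median of 0.45. The median level of the array (6.27) was below the limit of silent genes defined further down (6.79 in *lal+/+* cells). The *lal+/+* means of 6 of the 41 genes were below that limit too. The share of 13.5% therefore comes from genes that were not matched to these in level. At 0 calls lower, limma gave an unadjusted p under 0.05 to 23 of the 41 genes in the positive and to 2 in the negative direction. The same counts over all 19938 genes were 5220 and 2865.

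**Figure D1:**
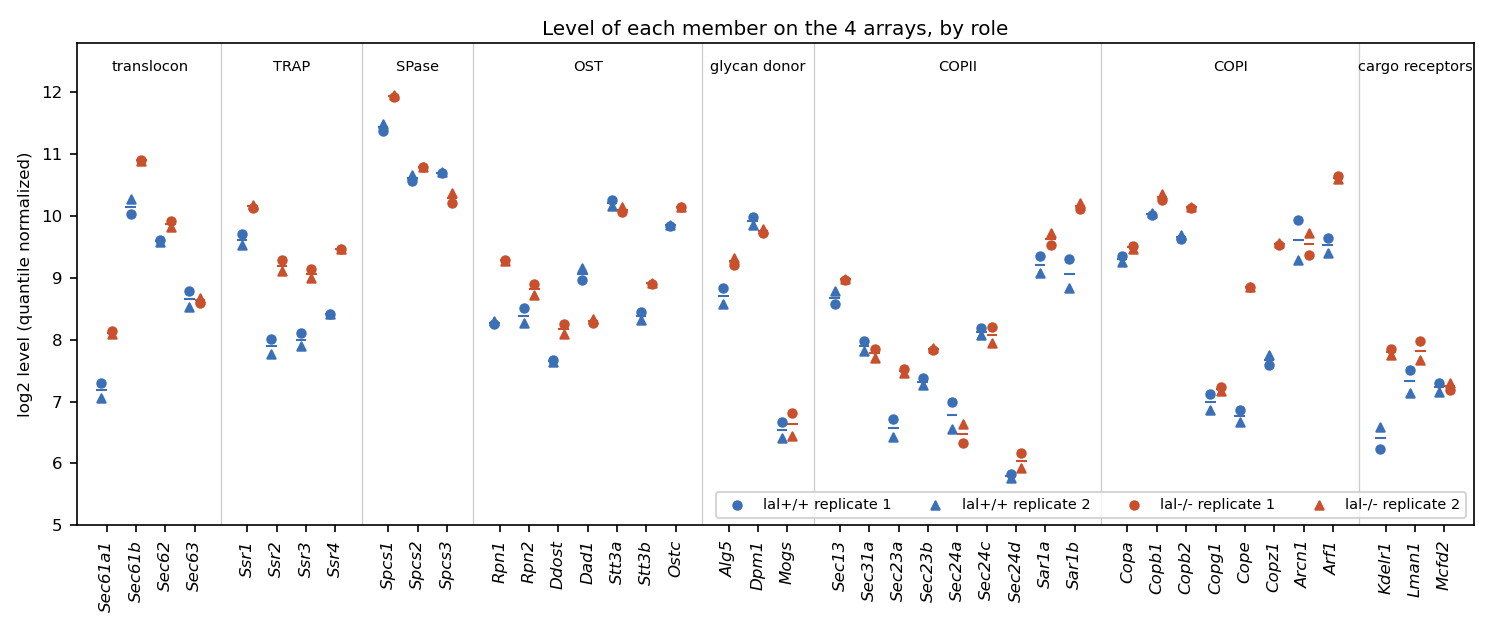
The vertical axis is the quantile normalized log2 level of each of the 41 measured genes, which stand along the horizontal axis by role (SPase, signal peptidase; OST, oligosaccharyltransferase). Blue symbols are the *lal+/+* arrays, red symbols the *lal−/−* arrays, circles replicate 1, triangles replicate 2 and short bars the means; both red symbols stand clear of the blue ones for Cope, Copz1 and the TRAP subunits, while those of Sec63, Mogs, Arcn1 and Mcfd2, for example, overlap with them.

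The identity of the sorted cells was checked on marker genes, because their levels moved with genotype. The sort antigen Ly6g rose (log2 fold change 2.88), and so did Itgam, which encodes CD11b (1.19). Lipa, which encodes lysosomal acid lipase, fell from 9.27 ± 0.32 to 7.43 ± 0.09 (mean ± SD, n = 2 arrays each), a log2 fold change of −1.85. All 5 genes of neutrophil primary granules rose, with a mean log2 level of 5.68 and 5.66 on the *lal+/+* arrays against 8.83 and 8.75 on the *lal−/−* arrays, and each of the 5 was in the range of silent genes in *lal+/+* cells. 4 of 5 secondary granule genes rose as well. All 5 B cell genes fell, from a mean level of 9.94 and 9.73 to 6.15 and 6.12, and 5 of 6 macrophage genes fell, from 9.22 and 9.02 to 6.60 and 6.73, of which Csf1r was not called with a common median (−0.93). Of 5 T cell genes, Cd3d rose (2.42), while Cd3e (−1.28) and Cd3g (−2.01) fell. Cd3d was at percentile 98.7 of level among all genes, and why it parted from Cd3e and Cd3g was not tested. Of 8 plasma cell genes, whose cells are rich in ER, 0 rose and Jchain, Irf4 and Mzb1 fell, with a mean level of 7.14 and 7.08 against 6.58 and 6.56. Of these, Jchain was not called with a common median (−0.80) or the deposited values (−0.98), and Irf4 was not called without *lal−/−* replicate 2 (−0.998). None of the 2 erythroid genes measured was called. The part of these shifts in the values below was not tested. In such bulk samples fewer cells of a type and less RNA per cell cannot be told apart.

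The 300-base promoter windows of RefSeq (build GRCm38.p6, from 250 bases before to 50 after a transcript start) were searched on both strands for the letters through which the unfolded protein response acts on ER genes. Windows were found for 36 of the 43 genes, and not for Sec61a1, Ssr2, Spcs3, Ostc, Arcn1, Lman1 and Kdelr2. The ER stress element, a 19-letter motif of CCAAT and CCACG with any 9 bases between them, was in 0 of the 36 and in 37 of 27025 genes with a window (0.137%). Its CCACG end alone was in 24 of the 36, beside 35.5% of all genes with a window and 42.9% of the measured ones. The core of the unfolded protein response element, TGACGTGG, contains CCACG when read from the other strand. It was in 5 of the 36, beside 0.714% of all genes with a window and 0.916% of the measured ones. These 5 sites are shown because they lie at genes of both vesicle coats that differed widely in their change. Each is given 5′ to 3′ on the strand of its gene, with 11 bases on either side and the core in capitals.
Arf1, chr11:59228239-59228246, minus strand: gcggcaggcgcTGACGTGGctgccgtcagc
Sec23a, chr12:59012004-59012011, minus strand: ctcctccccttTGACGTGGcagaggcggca
Sec24d, chr3:123267470-123267477, plus strand: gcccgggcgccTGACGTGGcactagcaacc
Copb1, chr7:114254701-114254708, minus strand: cccgcccccttCCACGTCAgccaaggactt
Copb2, chr9:98563724-98563731, plus strand: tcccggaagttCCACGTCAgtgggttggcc
Of these 5 genes, Arf1 was called higher (log2 fold change 1.09). Sec23a (0.93) and Copb2 (0.47) had an adjusted p under 0.05 without the fold, while Copb1 (0.28) and Sec24d (0.25) did not pass the test. The match is a description of these letters, not a measurement of binding.

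None of the 4 measured translocon genes was called. Sec61a1, the pore-forming subunit, had log2 levels of 7.30 and 7.06 in *lal+/+* and 8.14 and 8.09 in *lal−/−* cells. The groups did not overlap, and the difference was 0.93 ± 0.14 (SE; 1.91-fold; adjusted p = 0.00245), just below the 2-fold threshold. Sec61b, the small β subunit, had levels of 10.03 and 10.27 against 10.91 and 10.89, a difference of 0.75 ± 0.13 (adjusted p = 0.00615). Its 3 probe sets gave differences between 0.74 and 0.84. Sec62 and Sec63, which help the channel take up proteins after their synthesis, stood apart from these values. Sec62 read 9.62 and 9.58 against 9.92 and 9.82 (0.27, adjusted p = 0.147). Sec63 read 8.78 and 8.53 against 8.59 and 8.68 (−0.02, adjusted p = 0.925), with overlapping groups.

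The translocon-associated protein complex (TRAP), which sits beside the channel and aids the insertion of some signal peptides, had 3 of its 4 subunits called. Ssr2, the β subunit, was at 8.01 and 7.77 in *lal+/+* and at 9.28 and 9.11 in *lal−/−* cells. Both *lal−/−* arrays were above both *lal+/+* arrays, and Ssr2 rose by 1.30 ± 0.14 on the log2 scale (2.47-fold; adjusted p = 0.000759). Ssr3, the γ subunit, rose by 1.07 ± 0.14, from 8.11 and 7.89 to 9.14 and 9.001. Ssr4, the δ subunit, rose by 1.05 ± 0.12, from 8.42 and 8.41 to 9.47 and 9.47, the tightest pair of groups among the 4. Ssr1, the α subunit, read 9.70 and 9.54 against 10.13 and 10.18. Its difference of 0.54 ± 0.13 passed the adjusted p (0.0188) but not the fold.

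None of the 3 signal peptidase subunits was called. Spcs1 read 11.38 and 11.49 in *lal+/+* against 11.93 and 11.95 in *lal−/−* cells, a difference of 0.51 ± 0.12 (adjusted p = 0.0204). Spcs2 differed by 0.18 (adjusted p = 0.321). Spcs3, which the enzyme needs for its activity, went the other way: it read 10.70 and 10.71 against 10.22 and 10.37, a difference of −0.41 ± 0.13 at an adjusted p of 0.0486. The negative sign of Spcs3 turned under both other scalings of the arrays, to 0.22 with a common median and to 0.04 with the values as deposited.

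Of the 7 OST subunits measured, Rpn1 was called. Rpn1 (ribophorin I), a noncatalytic subunit that presents some substrates to the enzyme, read 8.26 and 8.30 in *lal+/+* and 9.29 and 9.27 in *lal−/−* cells. The 4 values formed a pair of narrow groups without overlap, and the increase of 1.004 ± 0.12 (2.01-fold; adjusted p = 0.00105) lay at the threshold itself: without either *lal−/−* array it was 0.97 or 0.99 and was not called. Ribophorin II (Rpn2) differed by 0.42 (adjusted p = 0.0662) and Ddost by 0.52 (adjusted p = 0.0201). Dad1, a small subunit named as a defender against apoptotic cell death, had the most negative value of the 41 genes after quantile normalization, though Sec24a was lower under both other scalings. It read 8.96 and 9.16 against 8.26 and 8.33, so that both *lal−/−* arrays were below both *lal+/+* arrays, and differed by −0.76 ± 0.13 (adjusted p = 0.00507), less than 2-fold.

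OST holds either of a pair of catalytic subunits. Stt3a, which acts on proteins as they enter through the channel, read 10.27 and 10.15 in *lal+/+* against 10.07 and 10.14 in *lal−/−* cells (−0.11 ± 0.12, adjusted p = 0.569). Stt3b, which acts also after entry, read 8.45 and 8.33 against 8.90 and 8.92 (0.52 ± 0.12, adjusted p = 0.0185). Neither was called. The change of Stt3a was 0.63 below that of Stt3b on the log2 scale (exact two-sided permutation test, p = 0.333, the smallest that 2 against 2 arrays allow; 9 gene pairs were compared in this way, and this p was reached by 8 of them). Ostc, a subunit of the Stt3a form, differed by 0.30 (adjusted p = 0.104).

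The 3 genes of glycan donor supply and trimming were not called. Alg5, which makes the dolichol-linked glucose donor, read 8.83 and 8.58 against 9.20 and 9.33 (0.56 ± 0.14, adjusted p = 0.0241). Dpm1, the catalytic subunit of dolichol-phosphate mannose synthase, differed by −0.16 (adjusted p = 0.390). Mogs, glucosidase I, which removes the outermost glucose of the transferred glycan, had overlapping groups (0.09, adjusted p = 0.721), and its *lal+/+* mean was below the range limit of silent genes, taken as the 95th percentile of 1035 olfactory receptor probe sets (6.79 in *lal+/+* and 6.29 in *lal−/−* cells).

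**Figure D2:**
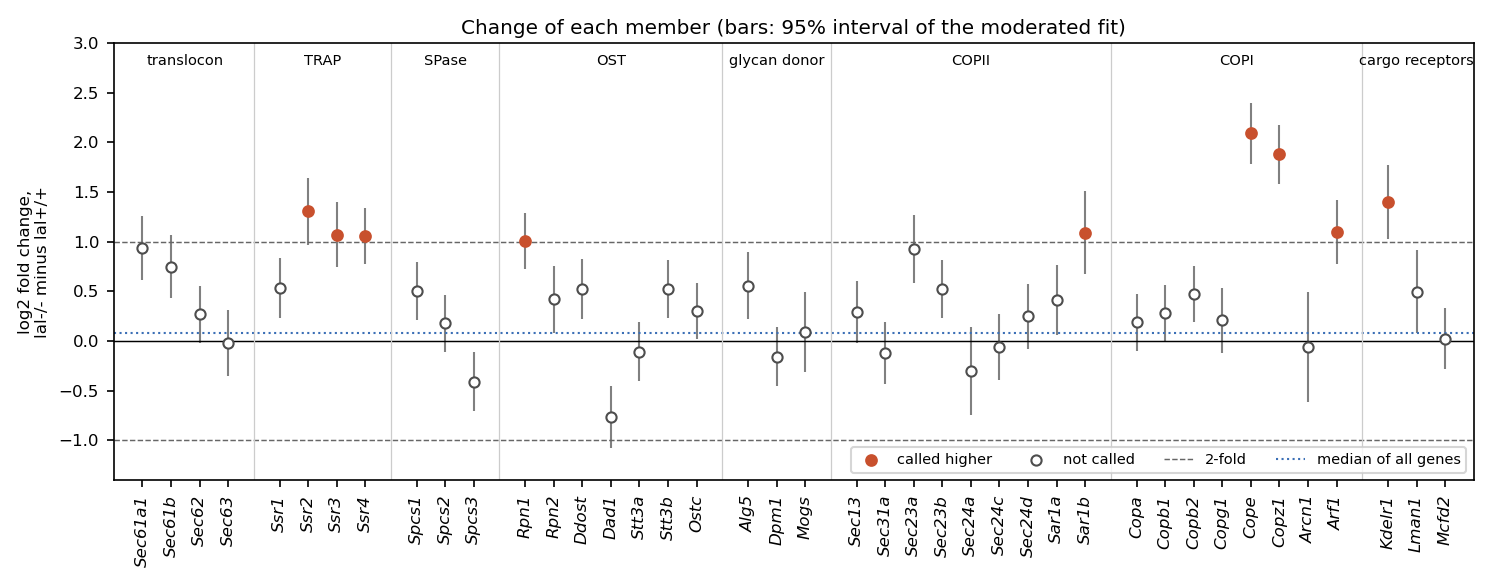
The vertical axis is the log2 fold change of each measured gene, *lal−/−* minus *lal+/+*, with the 95% interval of the moderated fit (2 arrays per genotype); filled red points were called higher and open points were not called, dashed lines mark 2-fold and the dotted line the median of all genes (0.08). Cope (2.09) and Copz1 (1.88) lie highest, 3 of 4 TRAP subunits lie above the dashed line, and Dad1 (−0.76) lies lowest with this scaling.

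COPII coats form when the GTPase Sar1 recruits Sec23 and Sec24 as the inner layer and Sec13 and Sec31 as the outer cage. 1 of 9 COPII genes was called. Sar1b read 9.30 and 8.84 in *lal+/+* and 10.11 and 10.21 in *lal−/−* cells. The *lal−/−* arrays were higher although the *lal+/+* arrays lay 0.46 apart, and Sar1b rose by 1.09 ± 0.17 (2.13-fold; adjusted p = 0.00373). Its paralog Sar1a read 9.35 and 9.08 against 9.53 and 9.72 (0.41 ± 0.15, adjusted p = 0.0801). The change of Sar1a was 0.68 below that of Sar1b (exact p = 0.333).

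Sec23, which also activates the GTPase activity of Sar1, is encoded by a pair of genes. Sec23a read 6.71 and 6.43 in *lal+/+* against 7.53 and 7.46 in *lal−/−* cells, a difference of 0.93 ± 0.14 (adjusted p = 0.00318) that began in the range of silent genes. Sec23b read 7.37 and 7.27 against 7.83 and 7.86 (0.52 ± 0.12, adjusted p = 0.0177). Neither reached 2-fold, and the change of Sec23a was 0.40 above that of Sec23b (exact p = 0.333), or 0.25 above it under both other scalings.

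The cargo adaptors of the coat gave no call. Sec24a read 6.998 and 6.56 in *lal+/+* against 6.32 and 6.64 in *lal−/−* cells, with overlapping groups (−0.30 ± 0.19, adjusted p = 0.279). Sec24c read 8.19 and 8.07 against 8.20 and 7.94, also overlapping (−0.06 ± 0.14, adjusted p = 0.792). Sec24d read 5.82 and 5.77 against 6.17 and 5.92 (0.25 ± 0.14, adjusted p = 0.223), and its levels were in the range of silent genes in both genotypes. The change of Sec24a was 0.24 below that of Sec24c (exact p = 0.667), or 0.63 below it under both other scalings, and 0.55 below that of Sec24d (exact p = 0.333). The difference between Sec24c and Sec24d (−0.31, exact p = 0.333) turned to 0.16 under both other scalings. In the outer cage Sec13 differed by 0.29 (adjusted p = 0.139) and Sec31a by −0.12 (adjusted p = 0.530).

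COPI coats consist of the heptameric coatomer, recruited to Golgi membranes by the GTPase Arf1, and 3 of the 8 genes measured were called. Cope, the ε subunit, read 6.86 and 6.67 in *lal+/+* and 8.86 and 8.85 in *lal−/−* cells. The groups were far apart, and Cope rose by 2.09 ± 0.13 (4.25-fold; adjusted p = 0.000105). Since its *lal+/+* mean fell in the range of silent genes, its level was at least 4.19-fold higher against the limit of that range. Copz1, the ζ1 subunit, read 7.60 and 7.75 against 9.53 and 9.57 and rose by 1.88 ± 0.13 (3.68-fold; adjusted p = 0.000134). Arf1 read 9.65 and 9.40 against 10.65 and 10.59 and rose by 1.09 ± 0.14 (2.14-fold; adjusted p = 0.00131). A further probe set of Arf1 rose by 1.75 ± 0.50 (adjusted p = 0.0392), with *lal+/+* values of 7.95 and 6.15.

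The other coatomer subunits did not share this size of change. Copa, the α subunit, read 9.35 and 9.26 in *lal+/+* against 9.52 and 9.47 in *lal−/−* cells (0.19 ± 0.12, adjusted p = 0.291). Copg1, the γ1 subunit that pairs with ζ, read 7.12 and 6.86 against 7.23 and 7.17 (0.21 ± 0.14, adjusted p = 0.309). Copb1 (β) differed by 0.28 (adjusted p = 0.132) and Copb2 (β′) by 0.47 (adjusted p = 0.0241). Arcn1, the δ subunit, gave 9.94 and 9.29 against 9.37 and 9.73, with overlapping groups (−0.06 ± 0.23, adjusted p = 0.874) and the widest error of the 41 genes.

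In pairs that were added after these values were seen, the change of Cope was 1.90 above that of its binding partner Copa, and the change of Copz1 was 1.67 above that of Copg1. Copg2, the γ2 paralog that can take the place of γ1, belongs to the further pathway genes and read 8.40 and 7.76 against 9.50 and 9.65. It rose by 1.496 ± 0.21, and its change was 1.29 above that of Copg1. Each of these 3 exact p-values was 0.333.

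Among the 3 cargo receptors measured, Kdelr1 was called. Kdelr1, which returns escaped ER chaperones from the Golgi apparatus in COPI vesicles, read 6.23 and 6.59 in *lal+/+* and 7.86 and 7.75 in *lal−/−* cells. The *lal−/−* arrays were above both *lal+/+* arrays, and Kdelr1 rose by 1.40 ± 0.16 (2.63-fold; adjusted p = 0.000844), or at least 2.03-fold against the range of silent genes, where both *lal+/+* values lay. Lman1 (ERGIC-53), a lectin that exports glycoproteins from the ER, read 7.52 and 7.14 against 7.97 and 7.68 (0.50 ± 0.18, adjusted p = 0.0756). Its cofactor Mcfd2 gave 7.30 and 7.15 against 7.19 and 7.31, with overlapping groups (0.02, adjusted p = 0.919).

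Some of these genes are neighbours on the chromosome (RefSeq, GRCm38.p6). Sar1b (chr11:51763663-51791953), which rose, lies beside Sec24a (chr11:51692263-51757161), which was not called (−0.30). On chromosome 6, Rpn1 (chr6:88084473-88105304, 1.004) lies between Copg1 (chr6:87887819-87913595, 0.21) and Sec61a1 (chr6:88503607-88518800, 0.93). The values of Rpn1 and Sec61a1 lay within their errors of each other, on either side of the threshold. Cope (chr8:70302767-70313002) and Copz1 (chr15:103272888-103299865), with the highest values of the 41, lie on different chromosomes.

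The scaling of the arrays bore on many of these genes. The values given so far were quantile normalized, which gave 70.0% of all 2154 called genes as higher. When the arrays were instead set to the same median, 84.9% were higher (2619 against 467 lower) and the median of the 41 genes moved to 0.92, beside 0.12 over all genes. With the values as deposited, 76.1% were higher (2013 against 633), and the median of the 41 was 0.74, beside −0.05 over all genes. All 9 calls were kept under both. The common median added Sec61a1 (1.24), Sec61b (1.37), Ssr1 (1.19), Stt3b (1.06), Alg5 (1.15), Sec23a (1.08), Sar1a (1.03) and Copb2 (1.13) to make 17, and the deposited values added Sec61a1 (1.06), Sec61b (1.19) and Ssr1 (1.01) to make 12. Dad1 moved to −0.21 (adjusted p = 0.292) with the common median and to −0.39 (adjusted p = 0.0525) with the deposited values, and no longer passed the adjusted p. Sec24a was at −0.25 and −0.43. Both genes kept their negative sign, whereas Sec63, Spcs3, Stt3a, Dpm1, Sec31a, Sec24c and Arcn1 turned positive.

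**Figure D3:**
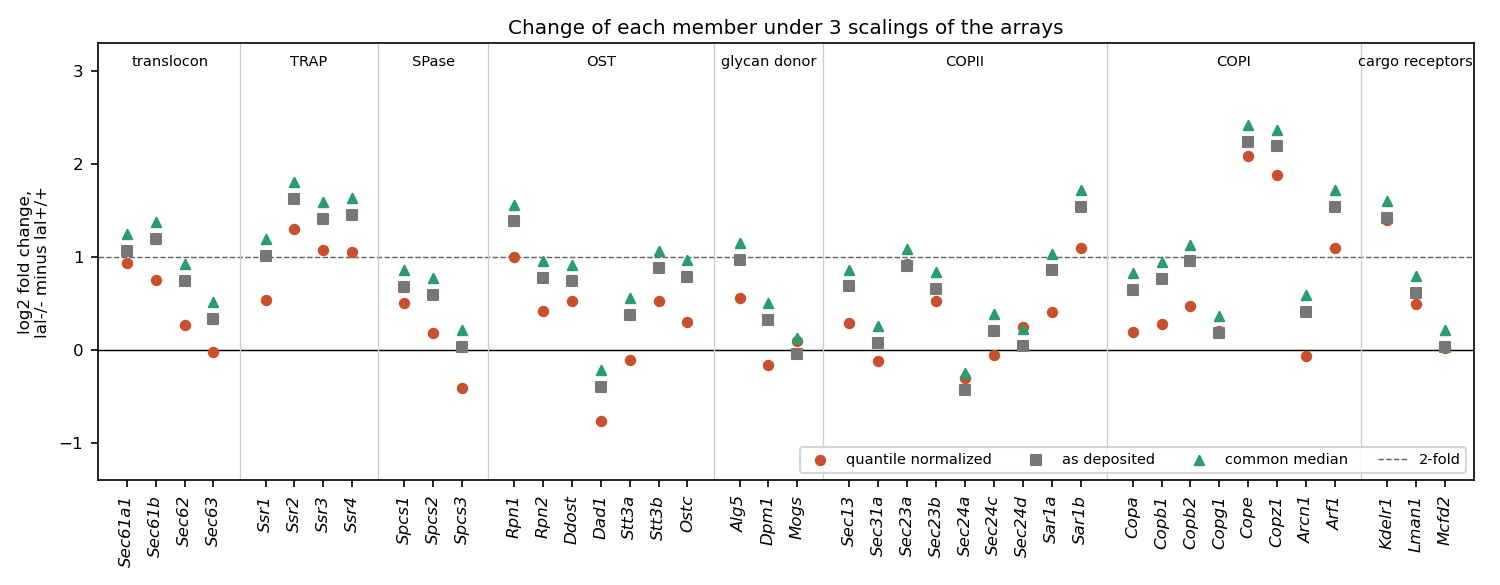
The vertical axis is the log2 fold change of each measured gene, *lal−/−* minus *lal+/+*, under 3 scalings of the same 4 arrays: quantile normalized (red circles), as deposited (grey squares) and a common median (green triangles), with the 2-fold line dashed. All 9 called genes, with Cope and Copz1 highest, stay above 2-fold under each, 8 further genes cross that line with the common median, and Dad1 and Sec24a stay below 0.

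5 of the 9 calls, those of Ssr2, Ssr4, Cope, Copz1 and Kdelr1, were kept when each array was left out in turn. Without *lal+/+* replicate 2, Ssr3 (0.998), Sar1b (0.86) and Arf1 (0.96) were no longer called and 6 remained. Without *lal−/−* replicate 1, Ssr3 (0.97) and Rpn1 (0.97) were lost, and without *lal−/−* replicate 2, Rpn1 (0.99). Without *lal+/+* replicate 1 all 9 were kept, and Sec61a1 and Sec23a (1.09) were added to make 11. An ordinary linear model, which has 2 residual degrees of freedom per gene and does not share the spread between genes, called 0 of the 41. It gave an unadjusted p under 0.05 to 21 of them in the positive and 2 in the negative direction. Over all genes these counts were 3859 and 1832.

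A wider list of 83 genes that act in the same steps was read in the same way, and 80 of them were measured. 14 rose (17.5%), 1 fell (1.25%) and 65 were not called, beside 7.56% higher and 3.24% lower over all genes. 69 of the 80 values were positive, beside 11909 of all 19938 genes. The median was 0.49, beside 0.08 over all genes. Targeting and insertion (12 genes), which brings ribosomes to the channel, held 1 call: Srpr, the α subunit of the signal recognition particle receptor, rose by 1.03 (7.22 and 6.38 against 7.73 and 7.93). It was not called without *lal+/+* replicate 2 (0.65) or without *lal−/−* replicate 2 (0.88), and without *lal+/+* replicate 1 its change was 1.49. The 12 genes had a median of 0.57, and their share called higher (8.33%) was near that of all genes. The 4 accessory OST genes had none, with a median of −0.29. The assembly of the dolichol-linked glycan had 5 of 24 genes called higher, including Srd5a3 (1.55), which makes dolichol from polyprenol, Dhdds (1.41), which builds the polyprenol chain, and Mpdu1 (1.22, or at least 2.27-fold against the range of silent genes), which is needed to use dolichol-linked mannose and glucose. Dpagt1, another of the 5 (1.11), had a *lal−/−* mean of 6.72, below the *lal+/+* limit of silent genes (6.79). No increase of Dpagt1 could be read against that limit.

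Glycan trimming and Golgi maturation held 3 increases and 1 decrease among 8 genes. Mgat2 and Mgat1, which start the branches of complex glycans, and the ER mannosidase Man1b1 were called higher, each from a *lal+/+* mean in the range of silent genes. Against the limit of that range the increase was at least 2.25-fold for Mgat2, 1.90-fold for Mgat1 and 1.04-fold for Man1b1. None of the 3 calls was kept without *lal+/+* replicate 2 (log2 fold changes of 0.82, 0.997 and 0.89). Mgat1 was also lost without either *lal−/−* array (0.98 and 0.94), and Man1b1 without *lal−/−* replicate 2 (0.82) and with the deposited values (0.897). Man1a, a Golgi mannosidase that acts before Mgat1, read 9.05 and 8.86 in *lal+/+* against 5.34 and 6.04 in *lal−/−* cells and fell into the range of silent genes, at least 6.37-fold lower against its limit (measured log2 difference −3.27). 0 of 7 COPII accessory genes and 1 of 9 COPI accessory genes, Copg2, were called, beside 7.56% called higher over all genes. The p24 proteins and further cargo receptors held 4 increases among 16 genes with a median of 0.66. Tmed3, a p24 protein of COPI and COPII vesicles, rose from 7.26 and 7.49 to 9.85 and 9.99, by 2.55. Surf4, an export receptor, read 6.58 and 6.59 against 8.64 and 8.42 (measured log2 difference 1.95). The *lal+/+* means of Surf4 and of the lectin Lman2 (1.34) were in the range of silent genes, so their increases were at least 3.35-fold and 2.003-fold.

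**Figure D4:**
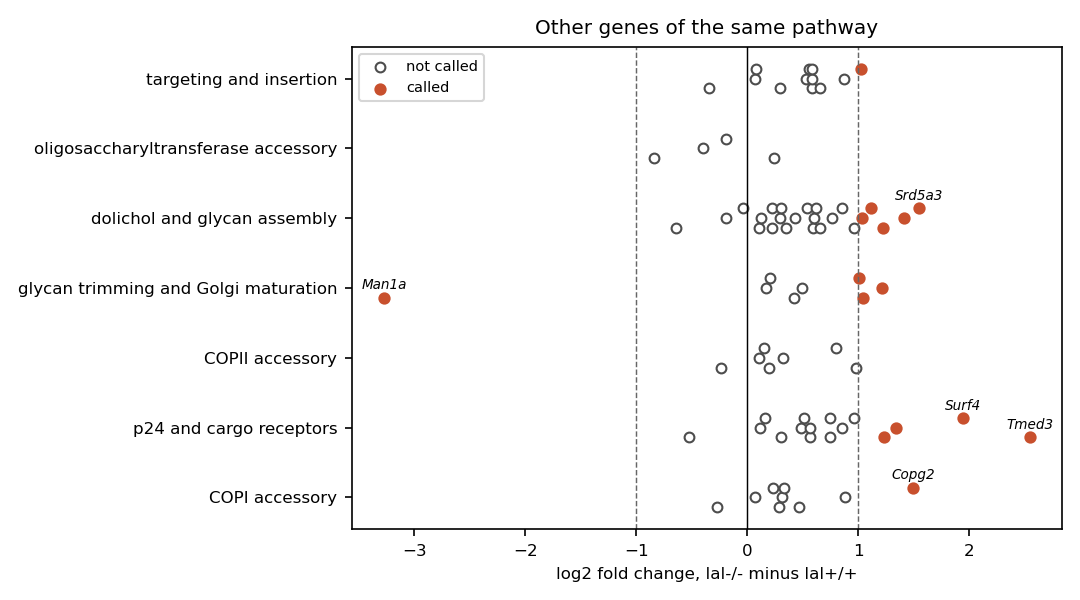
Each point is 1 of the 80 further pathway genes measured, with its log2 fold change, *lal−/−* minus *lal+/+*, on the horizontal axis and its step of the pathway on the vertical axis; filled points were called and dashed lines mark 2-fold. Tmed3 (2.55) and Surf4 (1.95) lie farthest to the right, and Man1a (−3.27) is the called gene to the left.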

How the data were processed

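The 4 deposited columns are on the log2 scale and were made by the authors from the scans (GCOS 1.1 per the labels) through RMA in Partek Genomics Suite. Of 35557 probe sets, 21789 name 1 gene in the gene table used here. The deposited columns had medians that differed by up to 0.21. They were quantile normalized, as in an earlier report on the series. Genotype was the model's sole term in limma 3.58.1 (R 4.3.3), with 4.83 prior and 2 residual degrees of freedom, since the tissue term of the methods cannot be fitted to 1 tissue. The Benjamini-Hochberg adjustment ran over the 21789 probe sets. The probe set with the highest mean stood for a gene, and calls needed both an adjusted p below 0.05 and a change of 2-fold or more. An SE is that of the moderated fit. The number of arrays, 2 per genotype, limits the precision.

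The genes and lists were chosen with earlier results of these data known, and Arf1 is among the genes that the study tabulated. Every measured gene was accounted for. The called gene with the largest change in each role and both genes of each paralog pair were given with the value of each array. So were other genes near the threshold and, except Dpm1 and Sec31a, those below 0. Of the wider pathway list, up to 3 called genes per step and direction were named, and Dpagt1 was added for its low level. Other settings were a common median, the deposited values without further scaling, a filter on probe sets under the median level, an adjustment that took in every probe set, robust variances with an intensity trend, a linear model without shared variances, a replicate block, calls without the fold, a stricter adjusted p of 0.01, averages over a gene's probe sets, and leaving out each array. A crossed block, 3 of the 9 gene pairs and the background among genes at or above the median level were added after seeing the data. The procedure was tested on simulated data. Promoter windows came from RefSeq.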

Additional observations from a re-analysis of the deposited data

How the results depend on the processing

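No call of the 9 changed with a replicate block, an intensity trend with robust variances, all probe sets in the adjustment, an adjusted p under 0.01, probe sets above the median level only or the mean of a gene's probe sets. Apart from that mean, these settings and the crossed block left the log2 fold changes of the 9 as they were. They therefore bore on the adjusted p alone, not on the fold that decided the calls. Same-numbered arrays did not deviate together (correlation of −0.18), so the numbers were not taken as pairs; the replicate block gave 9 calls among the 41 genes, 1508 higher and 646 lower genes in all, and a crossed block gave 9, 1508 and 646. With a common median 2619 genes in all, 17 of the 41 and 28 of the 80 further pathway genes were higher, and the median of the 41 was 0.92; with the values as deposited it was 0.74. Without the fold threshold 3938 genes were higher and 1963 lower, 19 of the 41 were higher and 2 lower, and 39 of the 80 were higher and 3 lower. The ordinary linear model called 0 in each of these (limma with moderated variances: 9 of the 41), though 3859 genes were higher and 1832 lower at an unadjusted p under 0.05. With 1 array left out, the 41 genes held 6 to 11 higher calls with a median of 0.33 to 0.47, the 80 held 10 to 15 higher and 1 to 2 lower, and all genes 1422 to 1752 higher and 630 to 737 lower. Such a lone array was assumed to vary like the other genotype.

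The sign turned with the common median for Sec63 (0.51), Spcs3 (0.22), Stt3a (0.56), Dpm1 (0.51), Sec31a (0.25), Sec24c (0.38) and Arcn1 (0.59). It turned with the deposited values for Sec63 (0.33), Spcs3 (0.037), Stt3a (0.38), Dpm1 (0.33), Mogs (−0.046), Sec31a (0.074), Sec24c (0.20) and Arcn1 (0.41), and for the difference of Sec24c and Sec24d it turned to 0.16 with both. With 1 array left out, values on both sides of 0 came from Sec63 (−0.15 to 0.11), Sec24c (−0.18 to 0.067), Arcn1 (−0.39 to 0.27), Mogs (−0.089 to 0.27) and Mcfd2 (−0.060 to 0.10). The cause was not tested. Levels in the range of silent genes limit Cope, Kdelr1, Sec23a, Sec24a and Mogs in *lal+/+* cells and Sec24d in both genotypes.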
